A study of Drosophila melanogaster with 8 samples.

Results

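The genes described here are 59 long noncoding RNA (lncRNA) genes that were expressed in early Drosophila melanogaster embryos. They are the genes whose FlyBase symbol begins with lncRNA:, other than roX1, and whose mean level over the 8 libraries was at least 2 CPM, the count scaled by the library's sum of gene counts and by 1e6. That is 59 of 1872 such symbols, of which 1138 had at least 1 read in any library, and of 17468 gene IDs in all. The members were thus chosen by their mean level, so the levels themselves are a description. The rule averages all libraries and does not look at differences between groups. Just inside the limit lay lncRNA:CR44917 at 2.217, lncRNA:CR45276 at 2.094 and lncRNA:CR44608 at 2.026 CPM. Just outside it lay lncRNA:CR44677 at 1.905, lncRNA:CR44779 at 1.892 and lncRNA:CR44756 at 1.882 CPM.

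Whole embryos were compared in 4 groups of 2 libraries each: zen[7] homozygotes and zen[7]/TM3, ftz-lacZ heterozygotes at the gastrula (stage 6-7), and the same genotypes at the cellular blastoderm (stage 5). Every group therefore carried at least 1 copy of zen[7], and no wild type is among them. zen encodes a homeodomain factor needed for the amnioserosa, an extraembryonic epithelium, and TM3 is a balancer of chromosome 3 with a lacZ transgene, so the genotypes differ along that whole chromosome. The libraries are called biological replicates and came from pools of embryos, so the p-values measure the spread between pools.

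Long noncoding RNAs are transcripts without a long open reading frame that may act as RNA, serve as precursors of small RNAs, or mark transcription of regulatory DNA. Some are cut to release microRNAs (miRNAs), short RNAs that lower the stability and translation of target mRNAs. Others are transcribed from the Hox complexes, where the bithorax and Antennapedia gene groups set segment identity along the body axis. In the early fly embryo, maternal RNAs are cleared while the zygotic genome is switched on, and stage 5 and stage 6-7 lie in and just after that change.

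Gene counts summed to between 29669956 and 37770105 per library, and every member had enough counts to be tested, among 9360 genes tested. The lowest count of a member in any library was 29. Stage was the main axis of difference, and the leading principal component carried 76% of the variance. Along it homozygous stage 5 replicate 1 lay at -56.2 (other stage 5 libraries -45.1 to -42.1) and heterozygous stage 6-7 replicate 1 at 38.9 (other stage 6-7 libraries 48.8 to 51.1). The stage labels were checked with the cellularization genes slam, nullo, bnk and halo: their summed level was 32.3 to 42.8 CPM in the 4 stage 6-7 libraries, against 2196.7 to 3152.1 CPM in the 4 stage 5 libraries. Most of the stage 5 sum was slam, but all 4 were called lower at stage 6-7 in both genotypes (edgeR). Of 4 gastrulation and early neural genes tested, 3 were called higher in each genotype. The other, sna, was not called (-0.17 in homozygotes, -0.24 in heterozygotes). The summed level of that list in heterozygotes overlapped between stages, at 304.9 to 357.0 CPM at stage 6-7 against 298.3 to 317.3 CPM at stage 5. Within stage 5 the timing genes differed between genotypes in part. nullo, which fell with stage, averaged 4.39 ± 0.619 CPM in homozygotes against 9.23 ± 2.05 CPM in heterozygotes (SD, n = 2 each; log2 difference -1.07, edgeR adjusted p = 0.0287). T48, a gastrulation gene that rose with stage, averaged 23.8 ± 3.43 CPM in homozygotes against 35.4 ± 1.92 CPM in heterozygotes (SD, n = 2 each; log2 difference -0.57, edgeR adjusted p = 0.0254). The other 3 cellularization genes tested (slam -0.04, bnk -0.21, halo 0.40) and the other 3 of 4 gastrulation and early neural genes tested (fog -0.40, sna 0.0, l(1)sc 0.24) were not called between genotypes at stage 5, and at stage 6-7 none of the 8 was (edgeR). The zen transcript does not check the genotype labels. Its level was 58.9 and 53.8 CPM in homozygotes against 41.0 and 58.2 CPM in heterozygotes at stage 6-7, and 153.8 and 133.9 CPM in homozygotes against 112.2 and 106.1 CPM in heterozygotes at stage 5. Of 9 amnioserosa genes, 7 were lower in homozygotes at stage 6-7 and 6 at stage 5. Of 2 hemocyte genes, Hml was higher in homozygotes at stage 6-7 (7.99 ± 0.299 CPM against 3.34 ± 1.22 CPM in heterozygotes, SD, n = 2). The other, Pxn, was not called there, at 0.821 ± 0.208 CPM in homozygotes against 0.96 ± 0.0457 CPM in heterozygotes (SD, n = 2, log2 difference -0.23). Of 3 pole cell and 2 yolk nucleus genes tested, 0 were called between genotypes (edgeR). What these cell types contribute to the genotype results was not tested. Eggshell and testis genes, marks of other tissues, were at or near 0, with group means of at most 0.0962 CPM.

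The 59 genes together held 0.3371% to 0.3623% of gene counts at stage 6-7 and 0.2652% to 0.2949% at stage 5. A few genes supplied most of that: lncRNA:CR42862, lncRNA:CR34335 and lncRNA:CR43887 made up 78.94% to 80.27% of the members' counts at stage 6-7 and 73.28% to 76.73% at stage 5. Over all libraries, 3 members averaged at least 100 CPM, 17 lay between 10 and 100, 11 between 5 and 10, and 28 under 5, with a median of 5.073 CPM. lncRNA:CR42862, on 3L from 224106 to 230964 (build BDGP6.54), led with a mean of 1380.2 CPM. lncRNA:CR34335, which lies within an intron of DIP-alpha on the same strand of X, followed at 767.83 CPM. lncRNA:CR43887 stood at 309.37 CPM, 218 bp from Dph1.

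Per kb of exon the order was different. lncRNA:CR34335, only 361 bp long, reached 2127.0 CPM per kb, lncRNA:CR43887 587.0, lncRNA:CR40469 362.8 and lncRNA:CR42862 251.6 CPM per kb. After a gap came lncRNA:marge at 79.2, lncRNA:CR43264 at 35.03, lncRNA:CR32218 at 26.43, lncRNA:CR45559 at 21.56, lncRNA:CR45409 at 20.52 and lncRNA:bxd at 20.4 CPM per kb. lncRNA:Hsromega, the heat-shock-inducible RNA of nuclear omega speckles, had the next highest level by CPM (99.051) but 4.562 CPM per kb over its 21710 bp.

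**Figure D1:**
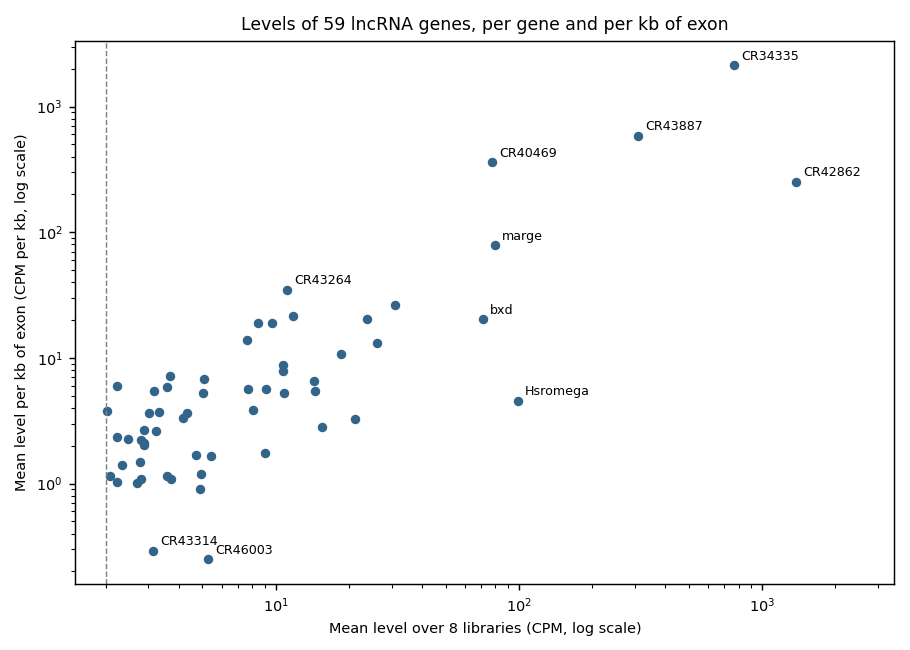
Mean level of each of the 59 genes over the 8 libraries (x axis, CPM, log scale) against the same level per kb of exon (y axis, CPM per kb, log scale), with 1 point per gene and a dashed line at 2 CPM. lncRNA:CR34335 is highest per kb at 2127.0, and lncRNA:CR42862 is highest per gene at 1380.2 CPM.

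Most members are known only by number: 51 carry a CR number as their whole name and 8 have another name. Chromosome 3 holds 34 of them (57.6%, against 44.9% of all lncRNA: symbols), X holds 9, 2R holds 8, 2L holds 7 and chromosome 4 holds 1. With the annotated exons of each gene merged, exon length ran from 214 to 21710 bp with a median of 1360 bp. In 30 members these exons merge into 1 block. In the annotation 31 members overlap another long gene, 12 on the same strand and 22 on the opposite strand, and 15 share exon bases with it. The sources used here do not say whether counting used strand, so reads from such overlaps cannot be assigned with certainty. 10 members contain miRNA hairpins, 22 hairpin entries in all. Of these, mir-iab-4 and mir-iab-8 are entered for both lncRNA:iab4 and lncRNA:iab8, and each of these members has only 1 of them on its own strand. lncRNA:CR42491 contains snoRNA:Psi18S-531 while sharing 377 exon bases with RpL22.

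The stage comparison asks which of these RNAs changed between the blastoderm and the gastrula. In homozygotes 31 of the 59 changed, 15 higher and 16 lower at stage 6-7, and in heterozygotes 28 changed, 16 higher and 12 lower (Benjamini-Hochberg adjusted p under 0.05, quasi-likelihood test of edgeR). Of all genes tested, 60.1% changed with stage in homozygotes (31.1% higher, 29.0% lower) and 54.9% in heterozygotes (28.4% higher, 26.5% lower), and of the members 52.5% did so in homozygotes and 47.5% in heterozygotes, no larger a share than over all genes. The members' median log2 change was -0.13 in homozygotes and 0.06 in heterozygotes, and that of all genes tested was 0.0 in homozygotes and 0.02 in heterozygotes. RNA came from whole embryos, so fewer cells of a type and less RNA per cell cannot be told apart. Scaling by library totals alone moved the median of all genes up by 0.2 in homozygotes and 0.15 in heterozygotes, and the members then divided into 18 higher and 13 lower in homozygotes and 18 higher and 10 lower in heterozygotes.

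Of the 59, 12 rose in both genotypes, 10 fell in both, and 0 were called in opposite directions. These 22 are 71.0% of the calls in homozygotes and 78.6% of the calls in heterozygotes. The same overlap was not counted over all genes tested, so these shares are not shown to be particular to the members. A further 9 were called in homozygotes alone (3 higher, 6 lower), 6 in heterozygotes alone (4 higher, 2 lower), and 22 in neither. A call in a single genotype does not show that the genotypes differ, and the test of that difference, given further on, called none of the 59. Among the members called in both genotypes the falls were larger than the rises. In both genotypes 8 fell by more than 1 on the log2 scale, with the deepest at lncRNA:CR44504, whereas 1, lncRNA:CR45559, rose by more than 1. These sizes were not counted over all genes tested, so the imbalance is not shown to be particular to the members.

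**Figure D2:**
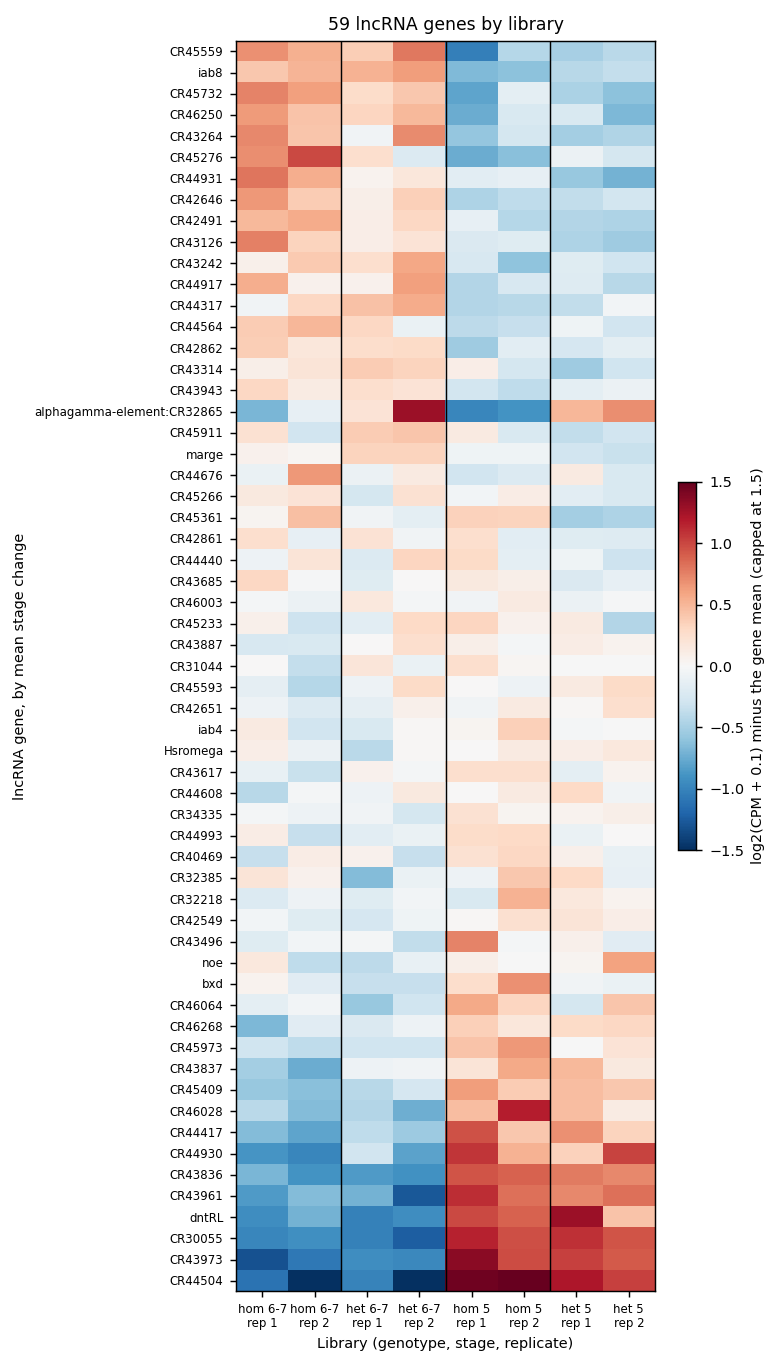
Level of the 59 genes (one line each, sorted by the mean stage change, rises at the top) in the 8 libraries (columns, homozygous and heterozygous at stage 6-7, then homozygous and heterozygous at stage 5). Colour gives log2(CPM + 0.1) minus the gene's own mean, capped at 1.5; the block at the bottom, led by lncRNA:CR44504, is blue in all stage 6-7 libraries and red in all stage 5 libraries.

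**Figure D3:**
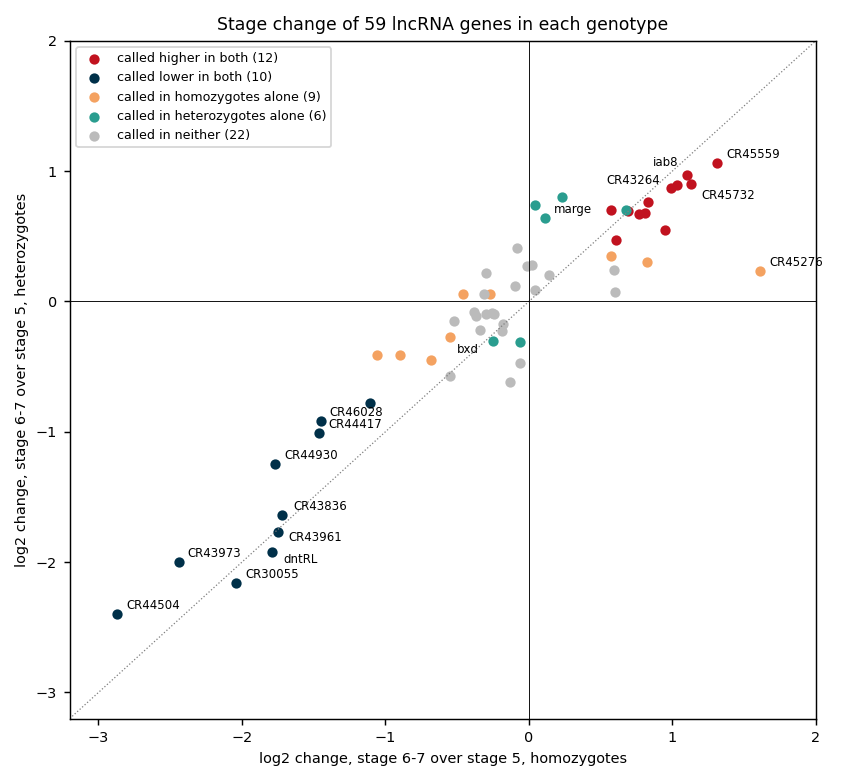
Log2 change, stage 6-7 over stage 5, in homozygotes (x axis) and heterozygotes (y axis), with 1 point per gene, coloured by the genotypes in which it was called. The 12 genes called higher in both and the 10 called lower in both lie in opposite corners, and lncRNA:CR45276 stands off the dotted line of equal change, at 1.61 in homozygotes and 0.23 in heterozygotes.

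Among the 10 miRNA hosts, 1 rose and 2 fell in homozygotes, and 3 rose and 3 fell in heterozygotes. lncRNA:CR44504, on the minus strand of 2R from 19659645 to 19661847, contains the mir-309 cluster of 8 hairpins, whose miRNAs are known to promote the decay of maternal mRNAs. In homozygotes it had 4.69 and 3.29 CPM at stage 6-7, against 28.2 and 30.4 CPM at stage 5. In heterozygotes it had 5.07 and 3.42 CPM at stage 6-7, against 23.9 and 21.0 CPM at stage 5. All stage 6-7 libraries were thus far below all stage 5 libraries, by a log2 change of -2.87 (SE 0.19, edgeR adjusted p = 2.98e-08) in homozygotes and -2.40 (SE 0.188, edgeR adjusted p = 1.52e-07) in heterozygotes. CG15125, whose annotated end is 46 bp away on the opposite strand, also fell, by 2.62 in homozygotes (edgeR adjusted p = 0.00232) and 1.74 in heterozygotes (edgeR adjusted p = 0.0248) on the log2 scale, at mean levels of at most 1.24 CPM.

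Another host that fell in both genotypes was lncRNA:CR43836 of X, which contains mir-31b. It had 4.94 and 4.26 CPM at stage 6-7 against 15.5 and 14.9 CPM at stage 5 in homozygotes, and 4.38 and 4.23 CPM against 13.8 and 13.2 CPM in heterozygotes at the same stages. No stage 6-7 library came near a stage 5 library, and the log2 change was -1.72 (SE 0.145, edgeR adjusted p = 2.6e-07) in homozygotes and -1.64 (SE 0.146, edgeR adjusted p = 4.85e-07) in heterozygotes. The genes it overlaps did not move as one: CG10962, which shares 473 exon bases with it on the same strand, fell by 1.64 in homozygotes and 1.93 in heterozygotes. On the opposite strand rdgA fell by 1.78 in homozygotes and 1.31 in heterozygotes, and Nost rose by 1.24 in homozygotes and 0.78 in heterozygotes (all edgeR adjusted p under 0.05).

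lncRNA:iab8, host of mir-iab-8, was the host that rose in both, and is described with the bithorax complex. In heterozygotes, lncRNA:CR45911, which contains mir-2c, mir-13a and mir-13b-1, rose by 0.74 (SE 0.223, edgeR adjusted p = 0.0115), and lncRNA:CR43314, which contains mir-bft, rose by 0.80 (SE 0.219, edgeR adjusted p = 0.00651). lncRNA:CR45911 had 4.71 and 4.81 CPM at stage 6-7 against 2.76 and 2.93 CPM at stage 5 in heterozygotes, whereas in homozygotes its 4.21 and 2.93 CPM at stage 6-7 overlapped 3.94 and 3.04 CPM at stage 5. lncRNA:Hsromega, which contains mir-4951, fell in heterozygotes by 0.31 on the log2 scale (SE 0.124, edgeR adjusted p = 0.0454). In that genotype its 74.2 and 99.5 CPM at stage 6-7 lay below 105.5 and 110.2 CPM at stage 5, and the call was lost under 6 of 17 alternatives: library totals, and the omission of heterozygous stage 5 replicate 1 or 2, homozygous stage 6-7 replicate 1 or 2 or heterozygous stage 6-7 replicate 1.

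The remaining hosts were not called with stage in either genotype. lncRNA:CR42651 of the Antennapedia complex, host of mir-10, had 6.93 to 8.46 CPM over the stage 6-7 libraries and 7.73 to 9.60 CPM over the stage 5 libraries. lncRNA:CR31044, host of mir-279 and mir-996, had 6.96 to 10.2 CPM over the stage 6-7 libraries and 8.91 to 10.7 CPM over the stage 5 libraries. lncRNA:iab4, host of mir-iab-4, and lncRNA:CR45361, host of mir-1, a miRNA of muscle, are taken up with the bithorax complex and the genotypes. A host's RNA level is not a measure of its mature miRNAs, which these libraries did not assay.

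**Figure D4:**
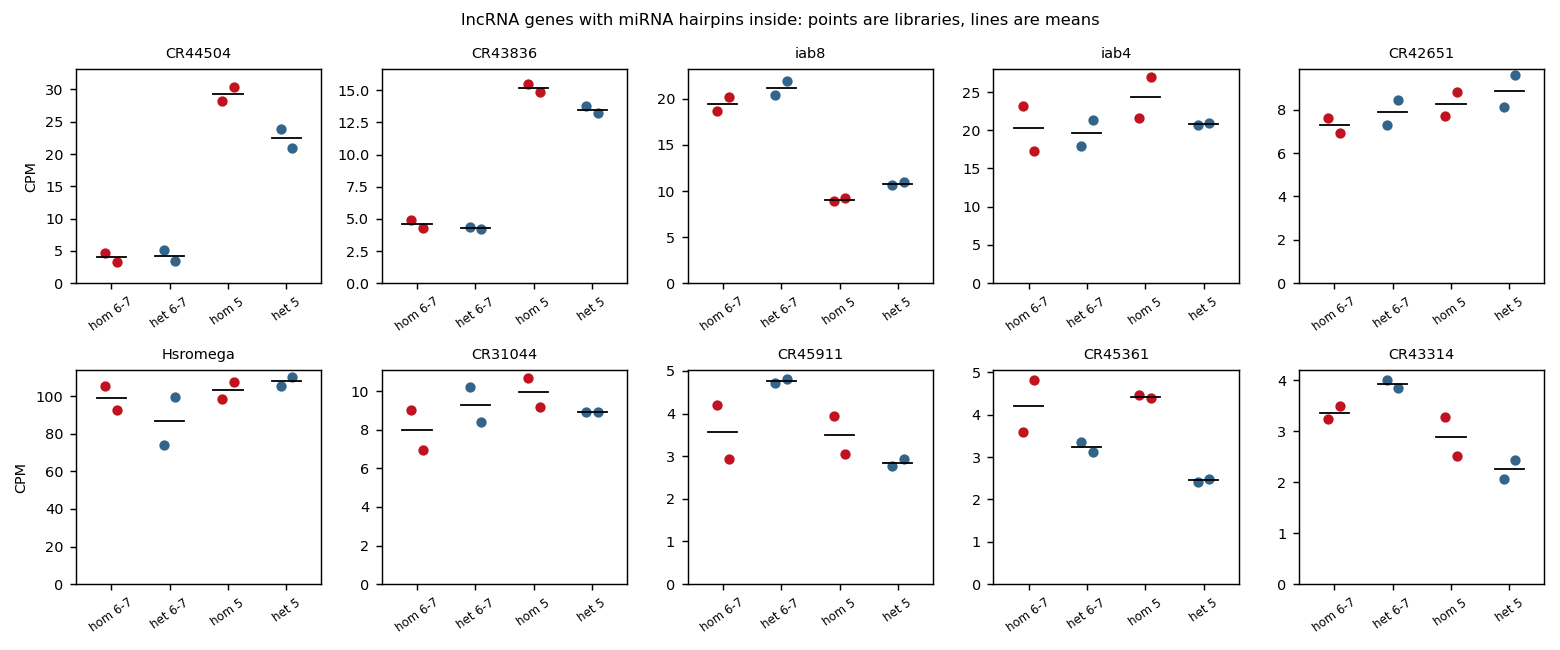
CPM of the 10 lncRNA genes that contain miRNA hairpins, in homozygotes (red) and heterozygotes (blue) at stage 6-7 and then stage 5, with 1 point per library and a line at each group's mean. lncRNA:CR44504 and lncRNA:CR43836 are lower and lncRNA:iab8 is higher in all stage 6-7 libraries, and each axis starts at 0.

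The bithorax complex holds 4 members, whose levels went different ways while its coding genes rose together. Ubx, abd-A and Abd-B, the Hox genes of the posterior segments, rose by 1.56, 1.90 and 2.36 on the log2 scale in homozygotes and by 1.33, 1.55 and 1.90 in heterozygotes. lncRNA:iab8, a long transcript of the region between abd-A and Abd-B, had 18.7 and 20.2 CPM at stage 6-7 against 8.88 and 9.21 CPM at stage 5 in homozygotes. In heterozygotes it had 20.4 and 21.9 CPM at stage 6-7 against 10.6 and 11 CPM at stage 5. Every stage 6-7 library was well above every stage 5 library, with log2 changes of 1.10 (SE 0.121, edgeR adjusted p = 3.14e-06) in homozygotes and 0.97 (SE 0.119, edgeR adjusted p = 9.44e-06) in heterozygotes.

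lncRNA:iab4 runs the opposite way through the same DNA, shares 1274 exon bases with lncRNA:iab8, and contains mir-iab-4, known to repress Ubx. It had 23.2 and 17.3 CPM at stage 6-7 against 21.6 and 27.0 CPM at stage 5 in homozygotes, and 17.9 and 21.3 CPM against 20.7 and 21.0 CPM in heterozygotes at the same stages. The stages overlapped in both genotypes, and the changes of -0.26 in homozygotes (edgeR adjusted p = 0.156) and -0.09 in heterozygotes (edgeR adjusted p = 0.647) were not called. lncRNA:CR43617, which also lies opposite lncRNA:iab8, fell in homozygotes by 0.46 on the log2 scale (SE 0.123, edgeR adjusted p = 0.00496), with 17.1 and 14.6 CPM at stage 6-7 against 21.9 CPM in both stage 5 libraries. In heterozygotes its 19.3 and 18.1 CPM at stage 6-7 overlapped 16.7 and 19.2 CPM at stage 5.

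lncRNA:bxd, on the minus strand of 3R from 16742125 to 16773189, is transcribed from the regulatory region upstream of Ubx and was the highest of the 4, at a mean of 71.147 CPM. In homozygotes it had 72.7 and 61.9 CPM at stage 6-7, against 83.9 and 112.6 CPM at stage 5. In heterozygotes it had 55.1 and 54.9 CPM at stage 6-7, against 67.4 and 65.4 CPM at stage 5. Every stage 6-7 library was below the stage 5 libraries of its genotype, by a log2 change of -0.55 (SE 0.127, edgeR adjusted p = 0.00201) in homozygotes and -0.27 (SE 0.128, edgeR adjusted p = 0.0878) in heterozygotes, of which the change in heterozygotes was not called, though it was under 5 of 17 alternatives. Ubx, 7699 bp away on the same strand, averaged 19.9 CPM at stage 6-7 against 6.74 CPM at stage 5 in homozygotes, and 14.8 CPM against 5.90 CPM in heterozygotes at the same stages.

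In the Antennapedia complex, 2 of 5 members rose and 1 fell, the same genes in both genotypes. lncRNA:CR45559, 545 bp long and 2791 bp from Antp, had 16.9 and 15.1 CPM at stage 6-7 against 5.06 and 7.71 CPM at stage 5 in homozygotes. In heterozygotes it had 13.5 and 18.1 CPM at stage 6-7 against 7.34 and 7.86 CPM at stage 5. This was the largest rise common to both genotypes, at 1.31 (SE 0.193, edgeR adjusted p = 4.42e-05) in homozygotes and 1.06 (SE 0.188, edgeR adjusted p = 0.000277) in heterozygotes on the log2 scale. lncRNA:CR44931, 10975 bp from Antp, rose by 0.83 in homozygotes (SE 0.147, edgeR adjusted p = 0.000235) and 0.76 in heterozygotes (SE 0.151, edgeR adjusted p = 0.000666). Antp, the Hox gene of the thorax, rose by 2.13 in homozygotes and 1.55 in heterozygotes.

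lncRNA:CR44930 fell, and had 5.07 and 4.78 CPM at stage 6-7 against 20.0 and 13.7 CPM at stage 5 in homozygotes, and 7.77 and 5.39 CPM against 12.1 and 19.2 CPM in heterozygotes at the same stages. The stages did not overlap, at -1.77 (SE 0.258, edgeR adjusted p = 0.000108) in homozygotes and -1.25 (SE 0.25, edgeR adjusted p = 0.00127) in heterozygotes. Ama, a gene of a secreted adhesion protein 224 bp away on the same strand, rose by 0.57 in homozygotes and 0.58 in heterozygotes. The other two, lncRNA:CR42651 and lncRNA:CR45593, were not called in either genotype.

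Outside the Hox complexes and the miRNA hosts, the deepest falls were those of lncRNA:CR43973, lncRNA:CR30055, lncRNA:dntRL and lncRNA:CR43961. lncRNA:CR43973, opposite the CTP synthase gene Ctps, had 1.13 and 1.35 CPM at stage 6-7 against 7.66 and 5.91 CPM at stage 5 in homozygotes, and 1.49 and 1.45 CPM against 6.09 and 5.65 CPM in heterozygotes at the same stages. Its log2 change was -2.44 (SE 0.224, edgeR adjusted p = 5.56e-07) in homozygotes and -2.0 (SE 0.219, edgeR adjusted p = 3.41e-06) in heterozygotes, while Ctps fell by 0.55 in homozygotes and 0.51 in heterozygotes. lncRNA:CR30055, opposite the corepressor gene Sin3A, had 3.68 to 4.58 CPM in the stage 6-7 libraries and 17.0 to 19.6 CPM in the stage 5 libraries. It fell by 2.04 in homozygotes (SE 0.148, edgeR adjusted p = 6.83e-08) and 2.16 in heterozygotes (SE 0.149, edgeR adjusted p = 4.81e-08), while Sin3A fell by 0.38 in homozygotes and 0.56 in heterozygotes.

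lncRNA:dntRL, 285 bp from CG17486, had 3.17 to 3.93 CPM in the stage 6-7 libraries and 8.77 to 16.0 CPM in the stage 5 libraries. The 2 heterozygous stage 5 libraries were the farthest apart, at 16.0 and 8.77 CPM, and the changes were -1.79 (SE 0.24, edgeR adjusted p = 2.42e-05) in homozygotes and -1.92 (SE 0.242, edgeR adjusted p = 1.57e-05) in heterozygotes. lncRNA:CR43961, opposite the teneurin gene Ten-a, had 1.62 to 2.55 CPM at stage 6-7 and 6.73 to 8.85 CPM at stage 5, with changes of -1.75 (SE 0.216, edgeR adjusted p = 8.72e-06) in homozygotes and -1.77 (SE 0.219, edgeR adjusted p = 1.05e-05) in heterozygotes. Ten-a rose by 2.65 in homozygotes and 1.84 in heterozygotes.

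The smaller falls common to both genotypes were lncRNA:CR44417 (-1.46 in homozygotes, -1.01 in heterozygotes), lncRNA:CR46028 (-1.45 in homozygotes, -0.92 in heterozygotes) and lncRNA:CR45409 (-1.11 in homozygotes, -0.78 in heterozygotes). lncRNA:CR45409 was the highest-expressed of the 10, with 14.8 to 19.2 CPM in the stage 6-7 libraries and 30.0 to 35.5 CPM in the stage 5 libraries. It abuts Cpsf6, a gene of mRNA 3′ end processing with which it shares 20 exon bases, and Cpsf6 fell by 0.36 in homozygotes and 0.46 in heterozygotes. The call on lncRNA:CR46028 in heterozygotes was lost without heterozygous stage 5 replicate 1 or heterozygous stage 6-7 replicate 2.

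The rises were smaller. lncRNA:CR42862, the highest-expressed member, had 1719.4 and 1501.6 CPM at stage 6-7 against 918.8 and 1195.1 CPM at stage 5 in homozygotes, and 1604.1 and 1625.4 CPM against 1121.9 and 1205.9 CPM in heterozygotes at the same stages. All stage 6-7 libraries were above all stage 5 libraries, by 0.61 (SE 0.113, edgeR adjusted p = 0.000344) in homozygotes and 0.47 (SE 0.113, edgeR adjusted p = 0.00264) in heterozygotes. CG33229, with which it shares 246 exon bases on the same strand, fell by 0.43 in homozygotes and 0.28 in heterozygotes.

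Of the further rises in both genotypes, lncRNA:CR45732 (1.13 in homozygotes, 0.90 in heterozygotes) lies 524 bp from CG33062, which rose by 1.32 in homozygotes and 1.12 in heterozygotes. lncRNA:CR43264, 318 bp long, had at stage 6-7 16.9 and 13.7 CPM in homozygotes as well as 9.87 and 16.8 CPM in heterozygotes, against 6.80 to 8.53 CPM over the stage 5 libraries. Its rise in heterozygotes of 0.87 (edgeR adjusted p = 0.00518) was 0.43 and not called without heterozygous stage 6-7 replicate 2. lncRNA:CR42646 rose by 0.95 in homozygotes and 0.55 in heterozygotes. lncRNA:CR46250 rose by 1.03 in homozygotes and 0.89 in heterozygotes, where the call was lost without stage 5 replicate 2 or stage 6-7 replicate 2 of that genotype.

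lncRNA:CR43126 rose by 0.77 in homozygotes and 0.67 in heterozygotes, while fkh, a forkhead gene of the gut primordia 784 bp away on the opposite strand, fell by 0.34 in homozygotes and 0.38 in heterozygotes. Its call was lost in homozygotes without homozygous stage 6-7 replicate 1, and in heterozygotes without heterozygous stage 5 replicate 2. lncRNA:CR42491 rose by 0.81 in homozygotes and 0.68 in heterozygotes. RpL22, a ribosomal protein gene with which it shares exon bases, fell by 0.24 in homozygotes (edgeR adjusted p = 0.0417), and its change of -0.16 in heterozygotes was not called. lncRNA:CR43242 rose by 0.69 in each genotype (edgeR adjusted p = 0.0306 in homozygotes and 0.0275 in heterozygotes). That call was lost in homozygotes without stage 6-7 replicate 2 or stage 5 replicate 2 of that genotype, and in heterozygotes without stage 6-7 replicate 2 or either stage 5 replicate, and with DESeq2 it was lost in both genotypes. lncRNA:CR44317 completes the 12, with rises of 0.57 in homozygotes and 0.70 in heterozygotes.

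Of the 10 members highest by CPM, several had small stage changes whose calls depended on the setting. lncRNA:CR34335 had at stage 6-7 750.8 and 727.3 CPM in homozygotes as well as 741.2 and 638.0 CPM in heterozygotes, against 789.1 to 902.0 CPM over the stage 5 libraries. Every stage 6-7 library was thus below every stage 5 library. Its change of -0.19 in homozygotes (edgeR adjusted p = 0.0896) was not called, and was 0.01 with library totals. Its change of -0.23 in heterozygotes (edgeR adjusted p = 0.0548) was not called either, but passed under 10 of 17 alternatives, among them RLE factors, DESeq2, limma-voom and both replicate blocks. lncRNA:CR40469 had 60.7 and 83.1 CPM at stage 6-7 against 90.3 and 95.6 CPM at stage 5 in homozygotes. Its change there of -0.37 (edgeR adjusted p = 0.0582) was not called, but passed under 7 of 17 alternatives, among them DESeq2, limma-voom and the homozygous libraries alone.

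lncRNA:CR43887 fell in homozygotes by 0.27 on the log2 scale (edgeR adjusted p = 0.0209), with 259.4 and 262.2 CPM at stage 6-7 against 326.2 and 302.5 CPM at stage 5, a call lost with library totals and without homozygous stage 5 replicate 1 or either homozygous stage 6-7 replicate. lncRNA:CR42549 fell by 0.30 in heterozygotes alone (edgeR adjusted p = 0.0445). That call was lost with library totals and without any of heterozygous stage 5 replicate 1 or 2, homozygous stage 6-7 replicate 1 or 2, or heterozygous stage 6-7 replicate 1. lncRNA:CR32218 was called in neither genotype (-0.34 in homozygotes, -0.22 in heterozygotes), and in each it passed under 2 of 17 alternatives. Its change in homozygotes was 0.09 without homozygous stage 5 replicate 2.

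Among the members of low level, lncRNA:CR44917 rose by 0.70 in heterozygotes (edgeR adjusted p = 0.0463), and its change of 0.68 in homozygotes was not called (edgeR adjusted p = 0.0503). The call in heterozygotes was lost under 10 of 17 alternatives: RLE factors, DESeq2, limma-voom, the heterozygous libraries alone, and the omission of any one of 6 libraries (both of homozygous stage 5, both of heterozygous stage 5, homozygous stage 6-7 replicate 1 and heterozygous stage 6-7 replicate 2). The change in homozygotes passed under 8 of 17. lncRNA:noe was called in neither genotype, and its change of -0.62 in heterozygotes (edgeR adjusted p = 0.0605) passed under 3 of 17.

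Set beside their neighbours, the members did not follow a single direction. A member and its nearest coding gene could both be tested in 50 pairs. In homozygotes both were called with stage in 22 pairs, 13 in the same direction and 9 in opposite directions. In heterozygotes the count was 18, with 12 the same and 6 opposite. Antp was counted with both lncRNA:CR45559 and lncRNA:CR44931, in the same direction in each genotype, so these pairs are not all independent. Of 29 tested pairs of a member and a gene that overlaps it, both were called in 14 in homozygotes and 10 in heterozygotes. The direction was the same in 6 of the 14 and 6 of the 10. The pair of lncRNA:iab8 and lncRNA:CR43617, opposite in homozygotes, was counted from each of its members, so the 14 are not all distinct. The same shares were not counted for other gene pairs.

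The genotype comparison asks which of these RNAs differed in homozygotes. At stage 6-7 no member passed the test (Benjamini-Hochberg adjusted p under 0.05, quasi-likelihood test of edgeR), against 1.77% of all genes tested (0.524% higher, 1.25% lower). At an unadjusted p under 0.05 there were 11 of 59, against 706 of all 9360 genes tested (edgeR). DESeq2 called 2 members and limma-voom 0. The share of all genes that each of these methods called was not counted, so these counts cannot be set against a background. At stage 5, 2 of 59 passed, against 1.62% of all genes. lncRNA:bxd was higher (0.288% of all genes were higher) and lncRNA:alphagamma-element:CR32865 was lower (1.34% were lower). With the genotype difference averaged over the stages, 4 passed, against 2.98% of all genes (0.855% higher, 2.13% lower): lncRNA:bxd, lncRNA:CR44931 and lncRNA:CR45361 were higher and lncRNA:alphagamma-element:CR32865 was lower. The count at stage 5 was 0 without either heterozygous stage 5 library and 1 without homozygous stage 5 replicate 1 or either heterozygous stage 6-7 library. The count averaged over stages was 1 without heterozygous stage 5 replicate 2, and 2 without heterozygous stage 5 replicate 1, homozygous stage 6-7 replicate 1 or heterozygous stage 6-7 replicate 2. At stage 6-7 it was 2 without homozygous stage 5 replicate 2 or heterozygous stage 6-7 replicate 1, and 1 without homozygous stage 5 replicate 1.

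lncRNA:bxd, with the libraries given above, was higher in both homozygous libraries than in both heterozygous libraries at each stage. The log2 difference was 0.29 (SE 0.128, edgeR adjusted p = 0.586) at stage 6-7 and 0.57 (SE 0.127, edgeR adjusted p = 0.0408) at stage 5, and 0.43 (SE 0.0902, edgeR adjusted p = 0.0159) averaged over stages. CG31275, which it overlaps on the same strand, averaged 8.26 CPM in homozygotes against 4.96 CPM in heterozygotes at stage 6-7, and 12.5 CPM in homozygotes against 5.49 CPM in heterozygotes at stage 5. It was 0.97 higher averaged over stages (edgeR adjusted p = 0.0156), whereas Ubx was not called (0.31, edgeR adjusted p = 0.281). The stage 5 call on lncRNA:bxd was lost under 9 of 17 alternatives: RLE or library-total scaling, a filter of at least 1 CPM in 2 libraries, the stage 5 libraries alone, and the omission of any one of homozygous stage 5 replicate 2, the heterozygous stage 5 libraries and the heterozygous stage 6-7 libraries. The averaged call was lost without any one of the heterozygous stage 5 libraries, homozygous stage 6-7 replicate 1 and heterozygous stage 6-7 replicate 2. lncRNA:bxd also fell with stage in homozygotes. Of the stage 5 genotype differences given above, nullo, which fell with stage, and T48, which rose with it, were both lower in homozygotes. As marks of timing these differences point in opposite directions, and their part in the result for lncRNA:bxd was not tested.

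lncRNA:alphagamma-element:CR32865 is one of the alpha-gamma elements, repeated noncoding transcripts of a heat shock locus on 3R, and its near-identical copies make its count uncertain. It had 1.48 and 2.23 CPM in homozygotes against 2.84 and 6.09 CPM in heterozygotes at stage 6-7, and 1.19 and 1.27 CPM in homozygotes against 3.48 and 4.04 CPM in heterozygotes at stage 5. Both homozygous libraries were below both heterozygous libraries at each stage, by a log2 difference of -1.26 (SE 0.326, edgeR adjusted p = 0.0814) at stage 6-7 and -1.61 (SE 0.351, edgeR adjusted p = 0.038) at stage 5. Averaged over stages it was -1.44 (SE 0.239, edgeR adjusted p = 0.00326), called under every alternative run, while the stage 5 call was lost without homozygous stage 5 replicate 1 or either heterozygous stage 5 library and with limma-voom. The element lies 7560 bp from Hsp70Ba, one of the inducible heat shock genes. Hsp70Ba had 1.89 and 3.64 CPM in homozygotes against 0.441 and 6.95 CPM in heterozygotes at stage 6-7, and 4.27 and 1.06 CPM in homozygotes against 8.15 and 9.08 CPM in heterozygotes at stage 5. The library that was higher for Hsp70Ba was also the higher one for the element in both genotypes at stage 6-7 and in heterozygotes at stage 5, but not in homozygotes at stage 5. None of the 8 heat shock genes tested was called between genotypes in any comparison (edgeR), and their part in the result was not tested.

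lncRNA:CR44931 of the Antennapedia complex had 15.7 and 13.1 CPM in homozygotes against 9.26 and 10.1 CPM in heterozygotes at stage 6-7, and 7.99 and 8.21 CPM in homozygotes against 6.01 and 5.42 CPM in heterozygotes at stage 5. It was higher in both homozygous libraries at each stage, by 0.57 (SE 0.144, edgeR adjusted p = 0.0703) at stage 6-7, 0.50 (SE 0.154, edgeR adjusted p = 0.162) at stage 5 and 0.54 (SE 0.105, edgeR adjusted p = 0.0106) averaged. The averaged call was lost without homozygous stage 6-7 replicate 1 or heterozygous stage 5 replicate 2. zen itself lies in the Antennapedia complex. Homozygotes for zen[7] also lack TM3, and the parts of these differences that go with each cannot be told apart.

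lncRNA:CR45361, host of mir-1 on 2L, is the called member that does not lie on chromosome 3. It had 3.59 and 4.81 CPM in homozygotes against 3.36 and 3.13 CPM in heterozygotes at stage 6-7, and 4.46 and 4.40 CPM in homozygotes against 2.41 and 2.49 CPM in heterozygotes at stage 5. The stage 5 libraries stood farther apart, at 0.85 (SE 0.212, edgeR adjusted p = 0.0673) against 0.37 (SE 0.206, edgeR adjusted p = 0.849) at stage 6-7, and the average was 0.61 (SE 0.148, edgeR adjusted p = 0.039). The averaged call was lost under 10 of 16 alternatives, among them DESeq2, limma-voom and the omission of any one library other than homozygous stage 6-7 replicate 1.

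**Figure D5:**
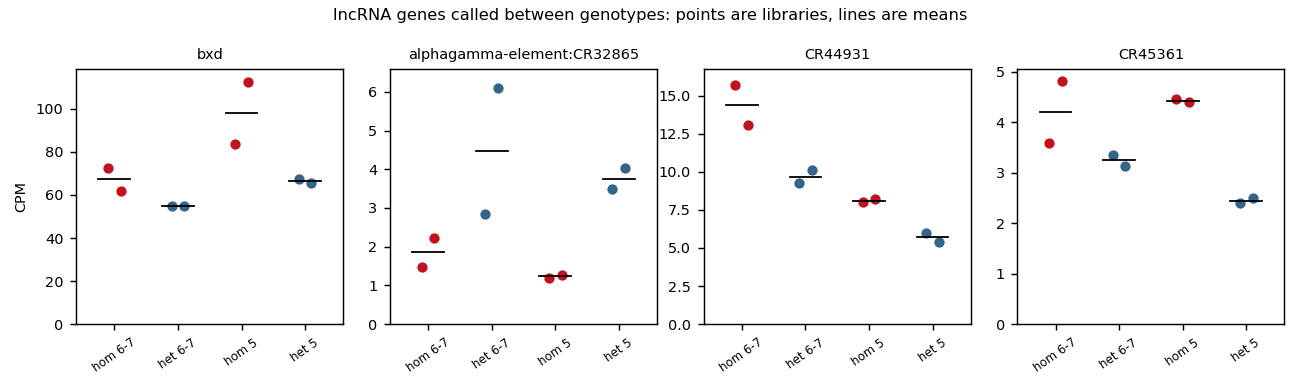
CPM of the 4 genes called between genotypes, in homozygotes (red) and heterozygotes (blue) at stage 6-7 and then stage 5, with 1 point per library and a line at each group's mean. In each panel both homozygous points lie on the same side of both heterozygous points at each stage, and each axis starts at 0.

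Of the 34 members on chromosome 3, 3 were called in the averaged comparison, and of the 25 elsewhere 1 was. Over all genes tested, the shares called in that comparison were 5.22% on chromosome 3 and 1.21% off it.

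Among the members that passed no genotype test, lncRNA:CR43887 came closest at stage 6-7, with 259.4 and 262.2 CPM in homozygotes against 309.1 and 366.7 CPM in heterozygotes (-0.37, SE 0.0918, edgeR adjusted p = 0.0609). It was called under 8 of 17 alternatives: with no low-count filter or the 1 CPM filter, with either replicate block, with DESeq2, and without homozygous stage 5 replicate 1 or 2 or heterozygous stage 6-7 replicate 1. Dph1, a diphthamide synthesis gene 218 bp away, differed by -0.07 at that stage (edgeR adjusted p = 1.0).

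Whether the genotype difference changed between stages was tested by the interaction, which called none of the 59, against 0.0748% of all genes (edgeR; 0.0107% with a higher and 0.0641% with a lower difference at stage 6-7). At an unadjusted p under 0.05 there were 5 of 59, against 629 of all 9360 genes tested (edgeR). DESeq2 called 1 member and limma-voom 0, again without a count over all genes. The member that DESeq2 called was lncRNA:marge, whose neighbour 586 bp away is the Bearded-family gene Ocho. It had 81.7 and 79.4 CPM in homozygotes against 98.1 and 97.9 CPM in heterozygotes at stage 6-7, and 74.6 and 74.3 CPM in homozygotes against 63.6 and 62.0 CPM in heterozygotes at stage 5. Homozygotes were thus below heterozygotes at stage 6-7 and above them at stage 5, with replicates close together, but the interaction of -0.53 (SE 0.121, edgeR adjusted p = 0.163) was not called, and was called with DESeq2 and when homozygous stage 5 replicate 2 was left out. With stage it rose in heterozygotes by 0.64 (SE 0.0859, edgeR adjusted p = 2.22e-05) and changed by 0.11 in homozygotes (edgeR adjusted p = 0.268).

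lncRNA:CR45276 had the largest interaction in size, 1.38 (SE 0.378, edgeR adjusted p = 0.276). It had 3.10 and 3.82 CPM at stage 6-7 against 1.08 and 1.18 CPM at stage 5 in homozygotes, a rise of 1.61 (SE 0.27, edgeR adjusted p = 0.000147). In heterozygotes its 2.26 and 1.62 CPM at stage 6-7 overlapped 1.77 and 1.55 CPM at stage 5 (0.23, edgeR adjusted p = 0.487).

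Compared with the less abundant lncRNA: symbols that could be tested, 224 in number and all under 2 CPM, the members had a larger share of stage calls. Of those 224, 37.9% were called in homozygotes and 27.2% in heterozygotes. Within the members the share was 65.0% in each genotype for the 20 at 10 CPM or more, and for the 39 under 10 CPM it was 46.2% in homozygotes and 38.5% in heterozygotes. Depth moves with these shares, and its part in them was not tested. Of the 11 annotated antisense RNAs at 2 CPM or more, 2 were called with stage in homozygotes and 3 in heterozygotes.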

How the data were processed

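RNA of pooled whole embryos (N = 100, per the labels) was sequenced as 100 bp paired reads, and homozygotes were picked by PCR, per the labels' protocols. The authors deposited whole-number counts per gene, not normalized. STAR and HTSeq are named in the submitters' processing notes. Versions, build, annotation and strandedness: not given in the sources used here. Summary lines that name no gene (12.89% to 18.22% of each total) entered neither library sizes nor tests. Names and positions came from Ensembl 115 (BDGP6.54), in which 17188 gene IDs were found and 280 were not.

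Groups follow the labelled genotype and stage. Counts were scaled with TMM (0.907 to 0.957 at stage 5, 1.058 to 1.068 at stage 6-7). Genes passed filterByExpr (minimum count 10), and a model was fitted on the whole table with edgeR 4.0.16 in R 4.3.3 (robust glmQLFit, glmQLFTest), with a mean for each group and a spread shared by all 8 libraries. Calls have a Benjamini-Hochberg adjusted p under 0.05 over 9360 genes. Fold changes are log2, stage 6-7 over stage 5 or homozygous over heterozygous. Levels of single libraries and group means are CPM on TMM-scaled library sizes. The 2 CPM rule, means over all 8 libraries, values per kb and shares of counts use unscaled CPM, where the sum of gene counts is the total. The fit was also run on counts simulated from its own estimates of level and spread, which does not test those estimates. In every group the 2 libraries differed beyond counting noise (chi-square per degree of freedom 6.92 to 48.79), so neither was a copy of the other. That comparison cannot tell separate pools from repeated preparations of the same pool, and it was not made between groups.

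The members, gene lists and neighbours were chosen with earlier results of these data known. Named members are those with a name other than a CR number, the 10 highest by CPM and by CPM per kb, all called between genotypes, the 10 largest rises and 10 largest falls called in both genotypes, and those next to the 2 CPM limit. Other miRNA hosts and Hox-complex members are named by position, and lncRNA:CR44317 was named after its values were seen, to complete a count. Alternatives were RLE factors, library totals, other filters, DESeq2 1.42.0, limma-voom (limma 3.58.1), replicate blocks, a stage or genotype alone, each library left out, and other limits on membership. Leaving out a library leaves 1 there, whose spread is taken to be that of the other groups.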

Additional observations from a re-analysis of the deposited data

How the results depend on the processing

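Of 75 combinations of a named member and a comparison that were called under at least 1 setting, 55 were called as reported and 39 of these held under every alternative, of which there were up to 17. A direction reversed in 4: the stage change of lncRNA:CR32218 in homozygotes was -0.67 to 0.09 with a library left out (the upper value without homozygous stage 5 replicate 2; -0.34 reported), that of lncRNA:CR34335 in homozygotes was 0.01 with library totals (-0.19 reported), the stage 5 genotype difference of lncRNA:CR42862 was -0.39 to 0.03 (the upper value without homozygous stage 5 replicate 1; -0.14 reported), and the stage change of lncRNA:alphagamma-element:CR32865 in heterozygotes was -0.41 to 0.69 (the lower value without heterozygous stage 6-7 replicate 2, 0.24 reported). None of these 4 was called as reported.

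Between genotypes at stage 5 the 2 calls became 1 with RLE factors, library totals, a filter of at least 1 CPM in 2 libraries, stage 5 alone, limma-voom, members at 5 CPM or more, or members that overlap no other gene, and 0 to 2 with a library left out. At stage 6-7 the 0 calls became 3 with no low-count filter, 1 with the 1 CPM filter, 2 with DESeq2, 2 with members at 1 CPM or more, and 0 to 2 with a library left out. Averaged over stages the 4 calls became 2 with members at 5 CPM or more, 2 with members that overlap no other gene, and 1 to 4 with a library left out. The interaction had 1 call with DESeq2 and 0 to 1 with a library left out. The cause was not tested, except that another limit on membership changes the number of genes counted. Shares over all genes were not counted under these alternatives.

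For stage, 102 members at 1 CPM or more gave 55 calls in homozygotes (25 higher, 30 lower) and 48 in heterozygotes (25 higher, 23 lower). The 31 members at 5 CPM or more gave 19 in homozygotes (9 higher, 10 lower) and 17 in heterozygotes (9 higher). The 23 members that overlap no other gene gave 14 in homozygotes (4 lower) and 10 in heterozygotes (8 higher, 2 lower). With a library left out there were 29 to 33 calls in homozygotes (13 to 16 higher, 15 to 18 lower) and 21 to 33 in heterozygotes (11 to 17 higher, 10 to 18 lower).

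The replicate numbers showed no shared effect between groups: deviations of same-numbered libraries from their group means correlated at -0.062 to 0.043 across genes. Whether same-numbered samples were handled together cannot be read from this. With the replicate number as a block, 2 members were called between genotypes at stage 6-7, lncRNA:CR43887 and lncRNA:alphagamma-element:CR32865, and a block within stage also gave 2. The lowest count of a member was 29, for lncRNA:CR45276, and an effect of depth on the calls was not tested.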
